A study of Homo sapiens with 6 samples.

Results

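The genes for 10 secreted antagonists of Wnt signalling, SFRP1, SFRP2, SFRP4, SFRP5, FRZB, DKK1, DKK3, DKK4, WIF1 and NOTUM, were followed in an RNA-seq comparison of HEK293T lines. They were picked by name, and all 10 were found by symbol among the 20169 Ensembl gene rows of the count table. HEK293T cells descend from human embryonic kidney and express the large T antigen of a virus. Each line held a landing pad, a docking site into which a reporter can be placed, with the PGK promoter (of the glycolytic gene PGK1) in one line and the CAG promoter (a strong composite promoter) in the other. Both lines were grown in DMEM with 10% serum and were collected at 70% confluence, and polyadenylated RNA was sequenced from 3 libraries of each. The lines are called monoclonal and the labels tell apart 1 line per promoter, so promoter and clone cannot be told apart in any value below. Whether each library had a culture of its own is not said in the labels, so standard errors and p-values measure the spread between these libraries, which may be technical.

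Wnt proteins are secreted lipid-modified ligands that bind Frizzled receptors together with the co-receptors LRP5 or LRP6. In the canonical branch this keeps beta-catenin, the product of CTNNB1, from being degraded, and beta-catenin then acts with TCF and LEF factors on target genes. The secreted Frizzled-related proteins (SFRP1, SFRP2, SFRP4, SFRP5 and FRZB) carry a domain like the Wnt-binding part of Frizzled and can hold the ligand away from the receptor. WIF1 also binds Wnt proteins, NOTUM removes the lipid that they need for activity, and DKK1 and DKK4 bind LRP5 and LRP6. DKK3 belongs to the DKK family by sequence, but its action on the co-receptors is less clear.

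The 10 genes were picked with results of the CAG against PGK contrast known, so their differences between the lines are given as a description with no test. Levels are in CPM, counts scaled to library size after TMM (trimmed mean of M-values) adjustment, and 1 read was worth 0.0420 to 0.0466 CPM. No threshold on values chose them. The filter on low counts was passed by 6 of the 10 (SFRP1, SFRP2, DKK1, DKK3, WIF1 and NOTUM) and not by SFRP4, SFRP5, FRZB and DKK4.

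For the 5 members below, the RefSeq promoter table (build GRCh38.p14) gives the 30 bases that end just before the annotated start of transcription, shown to set SFRP2 beside the relatives that were near 0 in both lines and beside DKK1, whose levels in the lines overlapped. All are written 5′ to 3′ on the gene's strand, with capitals marking CpG dinucleotides.
SFRP2 (chr4:153789084-153789113, minus strand): cataaaaaaggccaagaaaactctggctgt
SFRP4 (chr7:37916818-37916847, minus strand): gataaatagggtccCGcaatggcCGtggct
SFRP5 (chr10:97772000-97772029, minus strand): tggagcccCGaggtgggaggCGccaggatc
FRZB (chr2:182866638-182866667, minus strand): gggaggagaagctcccagatccttgtgtcc
DKK1 (chr10:52314251-52314280, plus strand): tataaaggcagcCGCGgtggCGgtggCGgc
The stretch of SFRP2 held 0 CpG and was 40.0% G or C, that of FRZB held 0, those of SFRP4 and SFRP5 held 2 each, and that of DKK1 held 4 and was 70.0% G or C. Over the whole 300-base promoter (250 bases before the start and 50 after), SFRP2 had 15 CpG, an observed-to-expected ratio of 0.553. The ratio was lower in 30.7% of the 14571 promoters of genes in the count table. Among the 6 members with a promoter in the table the ratio ran from 0.553 for SFRP2 to 0.876 for WIF1, and 5 of the 6, all but WIF1, lay below the median of 0.771 over all promoters. SFRP1, DKK3, DKK4 and NOTUM had no entry.

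The promoters were searched for TATAAA on the gene's strand and for the TCF/LEF-type words CTTTGAT and CTTTGTT on both strands. DKK1 held 1 TATAAA, which begins 30 bases before the start and opens the stretch shown above, and TATAAA was found in 6.61% of the 14571 promoters. DKK1 also held 1 CTTTGTT, 76 bases before the start, which does not overlap the TATAAA, and CTTTGTT was found in 4.09% of promoters. The match lies at chr10:52314194-52314223 on the plus strand, shown with the word in capitals.
DKK1 match: tcccatcccggCTTTGTTgtctccctccca
CTTTGAT was in 0 of the 6 members' promoters and in 1.91% of all. GGGCGG, the GC box, searched on both strands, was in all 6 and in 59.8% of all promoters.

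Library totals ran from 21896246 to 23442542 counts. Of 11 markers of HEK293-derived cells, the 9 matched by symbol summed to 662 to 680 CPM in PGK and 868 to 908 CPM in CAG. The intermediate filament VIM was at 455 CPM in PGK and 631 in CAG, the adhesion gene CDH2 at 111 and 127, and KRT18 at 52.2 and 57.1. Others of the list differed more. The neurofilament gene NEFM was at 18.8 CPM in PGK and 0.0853 in CAG and was called lower (an adjusted p under 0.05 in edgeR's quasi-likelihood test), while its relative INA (10.5 and 45.8) and the keratin KRT8 (1.09 and 5.35) were called higher. The kidney factor PAX2 was low at 1.55 and 1.27 CPM, and PAX8 had 1 count in all. Of 3 endothelial markers, the 2 matched by symbol, CDH5 and VWF, summed to at most 0.127 CPM in any library. The immune markers summed to at most 2.04 CPM. In the immune list CD3E had 0 counts.

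SFRP2 showed the widest difference among the members. It stood at 10.3, 9.48 and 10.7 CPM in the PGK libraries, from 222, 211 and 244 counts. In CAG it stood at 0.0887, 0.0424 and 0.0420 CPM, from 2, 1 and 1 counts. Every PGK library lay far above every CAG library, in which SFRP2 was no higher than a few reads allow. The ratio of PGK to CAG was 178 (95% exact binomial counting interval 69.2 to 655). Such intervals take in counting error alone, because PCR copies of a molecule are not independent reads. Of 13103 tested genes, 6 had a fitted log2 fold change as low as that of SFRP2 or lower, itself included.

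SFRP1, which shares the Frizzled-like domain of SFRP2, was also lower in CAG but was not lost. It stood at 7.45, 8.76 and 7.76 CPM in PGK and at 0.488, 0.678 and 0.755 CPM in CAG. The lines did not overlap, and each CAG library still held 11 to 18 reads. The means were 7.99 ± 0.687 and 0.640 ± 0.138 CPM (SD, n = 3), and the log2 fold change of CAG over PGK was -3.63 (SE 0.17). The ratio of PGK to CAG was 12.4 (counting interval 9.16 to 17.3), and its interval does not reach that of SFRP2.

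The remaining secreted Frizzled-related genes were near 0 in both lines. SFRP4 had 4, 3 and 2 counts in PGK and 4, 1 and 0 in CAG, and the ratio of PGK to CAG was 1.89 (counting interval 0.570 to 7.19). SFRP5 had 4, 2 and 1 counts in PGK and 3, 5 and 9 in CAG, and the ratio of CAG to PGK was 2.31 (0.910 to 6.59). FRZB had 0, 3 and 1 counts in PGK and 4, 4 and 2 in CAG, and the ratio of CAG to PGK was 2.38 (0.686 to 10.4). For all 3 the ranges of the lines overlapped and the interval held 1, so a difference was not detectable at this depth. Summed over the 5 genes, the group stood at 18.2, 18.6 and 18.6 CPM in PGK and at 1.06, 1.14 and 1.26 CPM in CAG. SFRP2 with SFRP1 made up nearly all of the PGK sum (55.1% and 43.3% of its counts, not scaled to gene length).

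**Figure D1:**
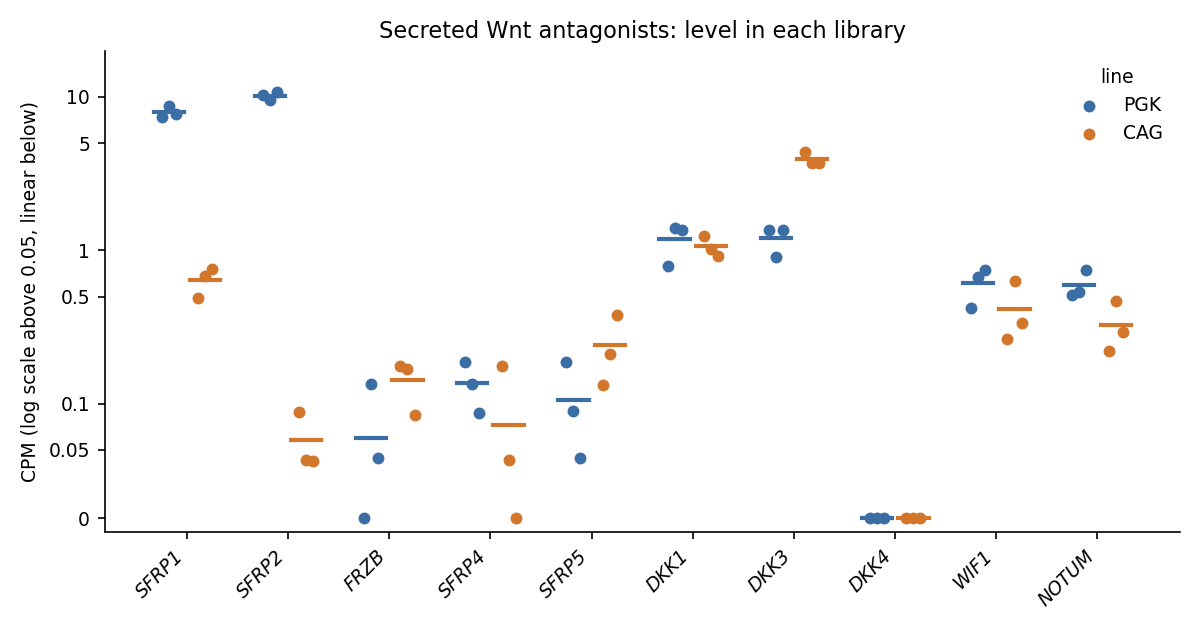
Level of each of the 10 genes in each library, in CPM (log scale above 0.05, linear below), with PGK libraries in blue, CAG libraries in orange and bars at the means of 3 libraries. SFRP1 and SFRP2 sit at 7.45 to 10.7 CPM in PGK and below 1 CPM in CAG, DKK3 sits higher in CAG, and DKK4 is at 0 in all 6.

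DKK3 went the other way. It stood at 1.35, 0.899 and 1.36 CPM in PGK (29, 20 and 31 counts) and at 4.39, 3.69 and 3.73 CPM in CAG (99, 87 and 89 counts). The lowest CAG library lay well above the highest PGK library. The log2 fold change was 1.71 (SE 0.19), and the ratio of CAG to PGK was 3.27 (counting interval 2.54 to 4.25). A difference this high or higher was seen for 293 tested genes, DKK3 included.

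DKK1, the LRP5 and LRP6 inhibitor, was low in both lines. Its levels were 0.792, 1.39 and 1.36 CPM in PGK and 1.24, 1.02 and 0.923 CPM in CAG. The CAG libraries fell within the PGK range, in which replicate 1 with 17 counts was below the other two with 31 each. The ratio of PGK to CAG was 1.12 (counting interval 0.807 to 1.56), so a modest difference either way was not detectable at this depth. DKK1 shares 9.61% of its exonic bases with the antisense RNA PRKG1-AS1, and its level is uncertain, as nothing at hand states whether counting used strand. DKK4 had 0 counts in all 6 libraries, and a floor of 3 counts per library allows a level of up to 0.126 to 0.14 CPM. The 3 DKK genes summed to 2.14, 2.29 and 2.72 CPM in PGK and to 5.63, 4.70 and 4.66 CPM in CAG. DKK3 gave 50.3% of that sum's counts in PGK and 78.8% in CAG, shares that are not scaled to gene length.

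WIF1 and NOTUM were below 1 CPM throughout. WIF1 stood at 0.419, 0.674 and 0.745 CPM in PGK and 0.266, 0.636 and 0.336 CPM in CAG, and the lines overlapped. The ratio of PGK to CAG was 1.49 (counting interval 0.902 to 2.48). NOTUM, itself a gene that Wnt signalling switches on in several tissues, stood at 0.512, 0.539 and 0.745 CPM in PGK and 0.222, 0.466 and 0.294 CPM in CAG. The lines did not overlap, but the nearest libraries of the lines held 11 reads each. For NOTUM the ratio of PGK to CAG was 1.83 (counting interval 1.07 to 3.20). That interval leaves out the spread between libraries, and the log2 fold change of CAG over PGK was -0.86 (SE 0.37).

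The libraries of the lines did not overlap for 4 of the 6 antagonists that passed the filter on low counts (SFRP1, SFRP2, DKK3 and NOTUM). Over all 13103 tested genes, which passed the same filter, the share was 65.5%. Because this contrast was known when the antagonists were chosen, nothing is read from that count.

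Summed over all 10 genes, antagonist RNA stood at 21.2, 22.1 and 22.8 CPM in PGK and at 7.18, 6.95 and 6.54 CPM in CAG. The make-up of the sum, in counts not scaled to gene length, also differed. SFRP2 and SFRP1 gave 46.1% and 36.2% of its counts in PGK but 0.830% and 9.34% in CAG. DKK3 gave 5.45% in PGK and 57.1% in CAG, and DKK1 gave 5.38% and 15.4%.

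Levels of different genes can be compared only per length, here as CPM per kilobase of merged exons. In PGK the order was SFRP2 at 5.01 ± 0.306, SFRP1 at 1.68 ± 0.144, DKK1 at 0.535 ± 0.153, WIF1 at 0.259 ± 0.0723, DKK3 at 0.238 ± 0.0520 and NOTUM at 0.198 ± 0.0421 (SD, n = 3). SFRP2, SFRP1 and DKK1 stood apart from one another and from those below in every library with this length, while WIF1 and DKK3, and DKK3 and NOTUM, had overlapping ranges. SFRP5, SFRP4 and FRZB followed at 0.0581 or less. In CAG the order was DKK3 at 0.778 ± 0.0778, DKK1 at 0.481 ± 0.0743, WIF1 at 0.174 ± 0.0829, SFRP1 at 0.134 ± 0.0289, SFRP5 at 0.131 ± 0.0680 and NOTUM at 0.108 ± 0.0416. Here DKK3 and DKK1 stood apart, the ranges of WIF1, SFRP1, SFRP5 and NOTUM ran into one another, and FRZB, SFRP2 and SFRP4 lay at 0.0454 or less. SFRP2 thus ranked 1 in PGK and 8 in CAG, and DKK3 ranked 5 and 1. With the length of the longest coding transcript in place of merged exons, DKK3 stood above WIF1 in PGK, at 0.454 against 0.274. With that length the PGK range of DKK3 (0.339 to 0.513) overlapped that of DKK1 (0.442 to 0.778), so DKK1 no longer stood apart.

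**Figure D2:**
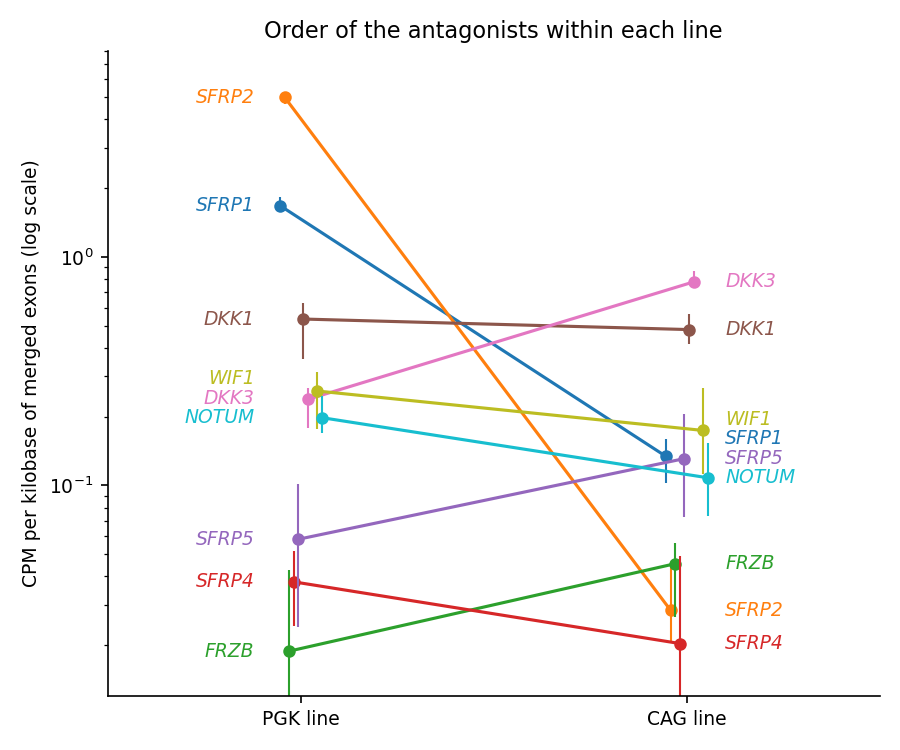
Mean level per kilobase of merged exons in each line (log scale), joined by a line for each gene, with vertical bars from the lowest to the highest of 3 libraries (bars that reach 0 are cut at the axis) and DKK4, at 0, left out. SFRP2 and SFRP1 head the PGK order at 5.01 and 1.68 CPM per kilobase, and DKK3 and DKK1 head the CAG order at 0.778 and 0.481.

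Fibroblasts are a usual source of SFRP RNA, so their markers are given beside these results. The 9 markers summed to 20.9 to 22.8 CPM in PGK and 31.5 to 32.4 CPM in CAG, most of it from COL1A1. Of the 4 tested, COL1A1, COL3A1, LUM and PDGFRA, all 4 were called higher in CAG, beside 31.6% of all tested genes. The log2 fold change of COL1A1 was small, at 0.20 (SE 0.07). Among the markers not tested, COL1A2, DCN, THY1 and POSTN were at 0 or at no more than 0.129 CPM on average in either line. PDGFRB, also not tested, averaged 0.241 CPM in PGK and 0.486 CPM in CAG. Among 4 epithelial markers 2 were tested, and CDH1 (1.17 CPM in PGK and 4.82 in CAG) and EPCAM (0.0292 and 1.11) were called higher in CAG. The untested KRT19 had 1 count in PGK and 0 in CAG, and CLDN4 had 4 and 16. The part of such differences in the antagonist levels was not tested. In bulk RNA, fewer cells with a transcript and less of it per cell cannot be told apart.

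The other genes of the pathway were set beside the antagonists in 6 lists by role, 96 genes in all with 7 repeats between lists, of which 71 were tested. In edgeR's test 18 were called higher and 24 lower, with a median log2 fold change of 0.00 and one of 0.00 over all tested genes. The share called was 59.2% of the 71, beside 62.0% of all tested genes (31.6% higher and 30.4% lower), so these counts do not set the pathway apart from the rest of the genome. By list, 45.5% to 75.0% of the tested genes were called. In each list, up to 2 called genes per direction were named for the largest change among those whose lines did not overlap. For these genes, a low adjusted p and lines that do not overlap follow from the choice.

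Of 21 genes for Wnt ligands and their secretion, 11 were tested, 5 were higher in CAG and 0 lower, with a median log2 fold change of 0.21. At an unadjusted p under 0.05 edgeR placed 1 lower, and DESeq2 called 0. WNT3A was called lower in edgeR without PGK replicate 1 or PGK replicate 2. WNT5A, a ligand best known for beta-catenin-independent signalling, stood at 33.0, 33.4 and 31.2 CPM in PGK and 51.5, 56.7 and 55.0 CPM in CAG. All CAG libraries were above all PGK libraries, and the log2 fold change was 0.74 (SE 0.06), with an adjusted p of 4.19e-09 in edgeR's test. WNT9A rose by 0.79 (SE 0.21) from a low level of 1.62 ± 0.496 to 2.79 ± 0.351 CPM (SD, n = 3). WLS, the carrier that brings Wnt proteins to the cell surface and a gene singled out after its value was seen, rose by 0.59 (SE 0.05). The 10 untested ligands had means of 0.409 CPM or less in either line, the highest being WNT7B in CAG, and WNT1 had 0 counts.

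Among 18 receptors and co-receptors, all tested, 9 were lower in CAG and 2 higher, with a median log2 fold change of -0.15. FZD10, a Frizzled receptor, stood at 3.21, 4.0 and 2.80 CPM in PGK and 1.06, 0.720 and 0.797 CPM in CAG. Its groups did not overlap, and its log2 fold change was -1.95 (SE 0.22), with an adjusted p of 2.73e-07 in edgeR's test. ROR2, a co-receptor for WNT5A, changed by -1.18 (SE 0.12), while its relative ROR1 rose by 0.52 (SE 0.09) and the pseudokinase PTK7 by 0.21 (SE 0.05). Counted on their own, a choice made after the values were seen, 6 of the 10 Frizzled genes (FZD1, FZD4, FZD6, FZD7, FZD9 and FZD10) were lower and 0 higher, in a comparison where 62.0% of all tested genes were called and 30.4% were lower. At an unadjusted p under 0.05 edgeR placed 0 higher, and DESeq2 called 5 lower and 0 higher. The 10 Frizzled genes summed to 261 to 263 CPM in PGK and 211 to 220 CPM in CAG.

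Neither of the co-receptors that DKK1 acts on passed the test. LRP5 stood at 85.0 ± 2.88 CPM in PGK and 87.1 ± 1.78 in CAG (SD, n = 3), with a log2 fold change of 0.03 (SE 0.05). LRP6 stood at 64.7 ± 5.74 and 60.2 ± 5.68 CPM, with a log2 fold change of -0.10 (SE 0.07). Their adjusted p in edgeR's test were 0.576 and 0.226. KREMEN1 and KREMEN2, which join DKK1 and LRP6 in a complex that is taken into the cell, were both called lower in CAG. KREMEN2 stood at 5.31, 4.23 and 6.75 CPM in PGK and 3.33, 2.84 and 2.81 CPM in CAG, a log2 fold change of -0.86 (SE 0.16). It shares 13.8% of its exonic bases with PKMYT1 on the other strand and is uncertain. KREMEN1 changed by -0.14 (SE 0.05), and its call was lost when scaled by library size only (adjusted p of 0.0944 in edgeR's test). The call was also lost when PGK replicate 2 or 3, or CAG replicate 1 or 3, was left out (0.0580 to 0.0819).

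Of 9 genes of the R-spondin branch, which protects Frizzled receptors from turnover, 5 were tested, 2 were lower and 1 higher, with a median log2 fold change of -0.13. The R-spondin receptor LGR5 stood at 7.73, 7.19 and 6.09 CPM in PGK and 3.73, 3.94 and 4.74 in CAG, a log2 fold change of -0.76 (SE 0.13). RNF43, a ligase that removes Frizzled receptors, changed by -0.50 (SE 0.07), but 57.6% of its exonic bases lie in another annotated gene model on the same strand, so its level is uncertain. The call of a higher level went to RSPO4, an R-spondin, from 0.0756 ± 0.0276 to 0.612 ± 0.108 CPM, below the level set for named genes and singled out after its value was seen.

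Inside the cell, 9 of 24 transduction genes were lower and 4 higher, with a median log2 fold change of -0.01. CTNNB1, which encodes beta-catenin, stood at 500, 530 and 512 CPM in PGK and 738, 747 and 754 CPM in CAG. All CAG libraries were above all PGK libraries, with a log2 fold change of 0.54 (SE 0.04) and an adjusted p of 6.46e-09 in edgeR's test. GSK3A, a kinase that marks beta-catenin for degradation, rose by 0.49 (SE 0.06). It shares 11.6% of its exonic bases with another counted gene on the same strand. The Dishevelled genes DVL1 and DVL3, which relay the signal from Frizzled, each fell by 0.71 on the log2 scale (SE 0.06 and 0.05).

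Known target genes went both ways. Of 20, 16 were tested, 7 were lower and 4 higher, with a median log2 fold change of -0.02. CCND1, which encodes cyclin D1 and answers to many signals besides Wnt, stood at 80.8, 83.1 and 80.4 CPM in PGK and 8.69, 10.6 and 11 CPM in CAG. The lines were far apart, with a log2 fold change of -3.01 (SE 0.07) and an adjusted p of 1.78e-16 in edgeR's test. It shares 10.3% of its exonic bases with LTO1 on the other strand, so part of its count is uncertain. AXIN2, a feedback inhibitor often read as a direct gauge of beta-catenin activity, stood at 12.7, 13.1 and 14.3 CPM in PGK and 13.6, 14.0 and 14.1 CPM in CAG. The lines overlapped, the log2 fold change was 0.06 (SE 0.08) and the adjusted p in edgeR's test was 0.540. AXIN2 overlaps another annotated gene model on the same strand over 25.2% of its exonic bases. CDX2, an intestinal transcription factor, rose by 0.63 (SE 0.06), and APCDD1, a membrane inhibitor that is itself a target, rose by 0.63 (SE 0.18).

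Further antagonists were fixed as a list of 11, of which 4 were tested, 3 were higher in CAG and 0 lower, with a median log2 fold change of 0.59. At an unadjusted p under 0.05 edgeR placed 0 lower, and DESeq2 called 0. SOSTDC1, which binds LRP6, stood at 0.745, 0.854 and 0.351 CPM in PGK and 1.15, 1.53 and 1.05 CPM in CAG, with a log2 fold change of 0.94 (SE 0.30). Its call was lost without PGK replicate 3 or CAG replicate 2. SOST and CTHRC1 had 0 counts. Outside the test stood 3 low genes singled out after their values were seen. DKK2, the DKK gene outside the 10, had a mean of 0.135 ± 0.0429 CPM in PGK and of 0.487 ± 0.135 CPM in CAG (SD, n = 3). DKKL1 went from 0.418 ± 0.126 to 0.128 ± 0.0725 CPM and CER1 from 0.210 ± 0.0208 to 0.0437 ± 0.0444 CPM. None of these 3 passed the low-count filter, and with no filter DKK2 was called higher and DKKL1 and CER1 lower. DKKL1 was also called lower without PGK replicate 1 or without any 1 of the CAG replicates. DKK2 was also called higher without CAG replicate 3 or without any 1 of the PGK replicates.

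**Figure D3:**
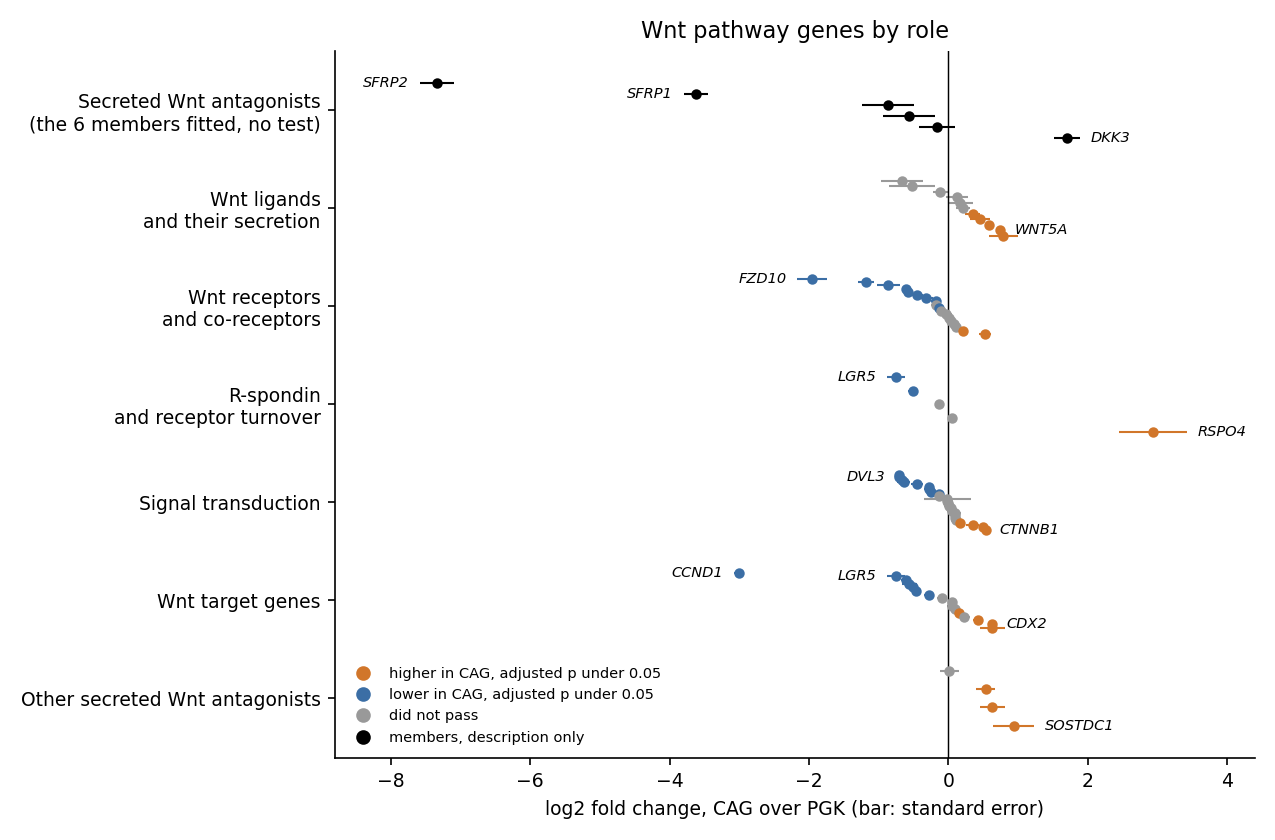
Log2 fold change of CAG over PGK with its standard error for the tested genes of each Wnt role (orange higher, blue lower, grey did not pass at an adjusted p of 0.05) and, in black and without a test, for the 6 fitted antagonists. SFRP2 (a fit that rests on 4 reads in CAG) and SFRP1 at -3.63 lie to the left of all other genes drawn, with CCND1 at -3.01 next.

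To set each antagonist beside its place in the genome, the 10 nearest tested genes on either side were taken for each by their order in GENCODE 29. Over all tested genes, 31.6% were called higher and 30.4% lower, with a median log2 fold change of -0.0021. SFRP2 lies on chromosome 4 among neighbours that were higher in CAG. Of its 20 neighbours 17 were called higher and 1 lower, with a median log2 fold change of 0.51, the opposite direction to SFRP2. The nearest ones, picked by place, were RNF175, at -0.60 and not past the test, and DCHS2, a large cadherin, which rose by 1.48. The neighbours of SFRP1 on chromosome 8 had a median of -0.10, with 10 called lower and 3 higher, and the lowest of them was at -0.64. For DKK3 on chromosome 11 the median was -0.01, with 3 higher and 5 lower, and the highest neighbour was at 0.89. In each of these 3 places the antagonist lay outside the range of its neighbours. The antagonists, unlike the neighbours, were picked with this contrast known, so nothing is read from that.

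DKK1 on chromosome 10 lay among genes with a median of -0.23, of which 11 were lower and 2 higher, and SFRP5 on the same chromosome among genes with a median of -0.36, of which 14 were lower. With 25 genes on each side these medians were -0.10 and -0.28. For WIF1 the median was -0.08, for NOTUM -0.04, for FRZB -0.02 and for SFRP4 -0.03. Beside SFRP4, a gene near 0 in both lines, its nearest tested neighbour on one side, EPDR1, rose by 3.01. DKK4 lies on chromosome 8 near SFRP1, which is among its 20 neighbours, and their median was -0.11.

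**Figure D4:**
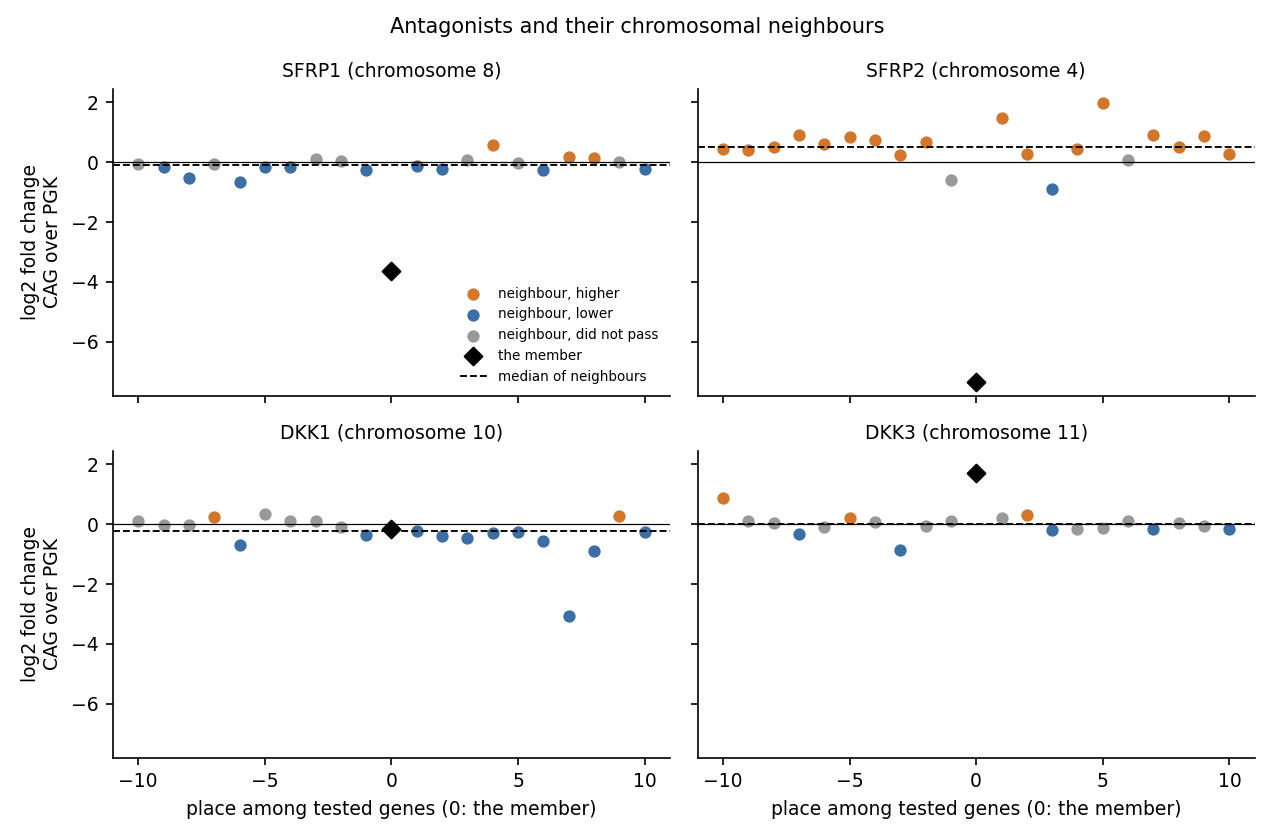
Log2 fold change of CAG over PGK for SFRP1, SFRP2, DKK1 and DKK3 (black diamonds) and for the 10 nearest tested genes on each side, by place along the chromosome, with the median of the neighbours dashed. SFRP2 lies far below neighbours with a median of 0.51, DKK3 lies above its neighbours, and DKK1 lies within the range of its own.

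Among the genes with the profile most like that of SFRP2 over the 6 libraries were LTBR and WDR72. Likeness was the root mean square difference of centred log2 CPM, which was 0.219 and 0.417. LTBR, the lymphotoxin beta receptor, was at 5.04 ± 0.294 CPM in PGK with 0 counts in CAG, and it overlaps SCNN1A on the other strand over 6.72% of its exonic bases. WDR72, a gene of enamel formation, was at 19.4 ± 0.120 and 0.403 ± 0.152 CPM (SD, n = 3). They lie on chromosomes 12 and 15, away from SFRP2 on chromosome 4. Since the 6 libraries come from 2 lines, the likeness rests mainly on the difference between the lines.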

How the data were processed

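The authors deposited whole-number read counts per Ensembl gene, 1 column for each of 6 libraries, not normalized. The submitters' processing notes list featureCounts 2.0.3, HISAT2 2.2.1, Bowtie2 2.5.1 and cutadapt 4.6, and hg19. What each did, the annotation, the strand setting and how multimapping reads were counted are details not given in the sources used here. Libraries were directional and made from polyadenylated RNA, per the labels' protocols.

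Symbols were matched by Ensembl identifier in GENCODE 29 for 19346 of 20169 rows. It is built on GRCh38, so it served only for names, gene order, overlaps and lengths. Promoters came from RefSeq (GRCh38.p14). Protein sequences were not used here.

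Genes were filtered with filterByExpr, scaled by TMM and fitted with edgeR 4.0.16 (R 4.3.3). Its robust quasi-likelihood test was two-sided, with Benjamini-Hochberg adjustment over 13103 genes. The procedure was also run on simulated data in which few genes were changed. That run does not show how it behaves in data where 62.0% of genes are called, as here. Each SE was taken from the fold change and the F statistic. No pair of libraries of a line agreed within sampling noise (chi-square per degree of freedom of at least 3.41).

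The members and lists were chosen with earlier results of these data known. Named genes were the members, up to 2 called genes per list and direction with the largest change, at least 1 CPM and no overlap, LRP5, LRP6, KREMEN1, KREMEN2, CTNNB1, AXIN2, and the 3 genes most like SFRP2, of which 1 is not reported here. Alternatives were other filters and scalings, DESeq2 1.42.0, a replicate block, another length and window, and leaving out each library.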

Additional observations from a re-analysis of the deposited data

How the results depend on the processing

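The fitted changes of SFRP1, SFRP2 and DKK3 kept their direction under every setting run, with log2 fold changes of -3.76 to -3.47, -7.74 to -7.17 and 1.53 to 1.80 without 1 library. SFRP2 moved beyond the spread between libraries once, without CAG replicate 1, which held 2 of its 4 CAG reads. Over all genes, 7326 to 8030 were called without 1 library, against 8125. Some small counts changed. The number of ligands called lower was 0 to 1 without 1 library, and that of further antagonists called lower 0 to 1. Further antagonists called higher numbered 2 to 4 without 1 library. With no low-count filter 2 further antagonists, CER1 and DKKL1, were called lower. With a filter of 1 CPM in 3 libraries 0 genes of the R-spondin branch were called higher, since RSPO4 was then not tested. The order of the antagonists per length kept 44 of 45 pairs in either line with the longest coding transcript as length. Whether replicate numbers mark libraries handled together is not said in the labels. Correlations of same-numbered deviations were 0.108, 0.103 and 0.0131. Over all genes, 8861 were called with a replicate block, against 8125 without it. A replicate block changed 1 call among the named genes, LRP6, with an adjusted p of 0.0466 in edgeR's test. Depth limits SFRP4, SFRP5 and FRZB, whose 4 to 17 reads per line leave intervals of the ratio that reach 6.59 or more.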
